A study of Mus musculus with 10 samples.

Results

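Kruppel-like factors are transcription factors with C2H2 zinc fingers that bind CACCC boxes and GC-rich sites, and several of them act on the switch that turns a preadipocyte into an adipocyte. The 10 members described here are Klf4, Klf5, Klf6, Klf9, Klf13 and Klf15, which favour adipogenesis, Klf2, Klf3 and Klf7, which hinder it, and Klf10, which was put in neither class. They were chosen by gene symbol from published roles, with earlier results of these data known. A probe set, the group of array probes summarised to 1 value, had to be annotated to 1 member symbol alone, and the brightest per gene over all 10 arrays was kept. Each of the 10 members had 1 such probe set, so the choice of the brightest was never needed, and the 10 stand among 19937 genes named on the array.

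The members act at different steps. Klf4 works with Egr2 (Krox20) to switch on Cebpb early in differentiation, Klf5 is induced by Cebpb and Cebpd and activates the Pparg2 promoter, and Klf6 represses Dlk1, the preadipocyte factor that holds differentiation back. Klf9, Klf13 and Klf15 promote Pparg expression, and Klf15 also raises the glucose transporter gene Slc2a4. Klf2 represses the Pparg2 promoter, Klf3 recruits the corepressor CtBP to repress Cebpa, and Klf7 inhibits differentiation when overexpressed. Klf10 is an early response gene of TGF-beta.

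The arrays measured RNA of 10 clonal lines derived from 3T3-L1, a mouse embryonic fibroblast line that is widely used as a preadipocyte model. The 5 High lines, clones 3F4, 4D2, 4E3, 5C4 and 5D4, were classed by the labels as high in adipogenic potential, and the 5 Low lines, clones 1E7, 2D7, 2F1, 4D11 and 4H4, as low. They are called High 1 to 5 and Low 1 to 5 in that order, and the numbers pair no lines. All 10 were untreated, proliferating and not yet confluent in DMEM with serum, so no line had been given an adipogenic cocktail. Each line is 1 clone with 1 array, and the spread within a class holds clonal and technical variation together. All values are log2 intensities made by RMA, which corrects background, equalises the arrays and summarises the probes. They are read within 1 gene only, because probe sets differ in brightness for reasons other than RNA amount.

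As a check of cell type, all 10 fibroblast and preadipocyte markers lay above the median of their array in at least 5 arrays. Of the mature adipocyte markers with a probe set this held for 1 of 7, Plin1, and Adipoq and Lep fell below the intensity filter. It held for 0 of 6 endothelial, 3 of 6 macrophage (Cd68, Cd14 and Lyz2), 1 of 6 epithelial (Krt8) and 5 of 6 smooth muscle markers, while Ptprc, which defines leukocytes, fell below the filter. No marker of these lists passed an adjusted p of 0.05 between High and Low lines in limma's test. Pparg, given with the genes tied to the members, had the smallest p of these markers. Of the lists for other cell types, Tagln of smooth muscle had 10.84 ± 0.41 in High lines and 11.54 ± 0.18 in Low lines (adjusted p = 0.277), and Cd36 of adipocytes was below the filter and untested, at 6.34 ± 0.89 in High lines and 5.22 ± 0.10 in Low lines (SD, n = 5 each). Their part in the values of the members was not tested. Array medians ran between 7.74 and 7.84, and pairs of arrays correlated at 0.982 to 0.995. All 10 members passed the filter, which asked for 5 or more arrays with a value above the 25th percentile of that array. All 10 also lay above the array median in at least 5 arrays, but Klf15 was close to it. Its values, the lowest of the members, ran from 7.60 to 7.97 and fell below the median of some arrays.

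The question put to the members was whether lines that differ in adipogenic potential already differ in these factors while they proliferate. No member was called as different between High and Low lines. limma, with Benjamini-Hochberg adjustment over 16339 tested genes, called 0 of 10 members at an adjusted p of 0.05 and 0 of 10 at an unadjusted p of 0.05. The two-sided exact permutation test over all 252 assignments of 5 and 5 lines also gave 0 of 10 at 0.05, where the smallest p it allows is 0.00794. Among all tested genes the same limma fit called 0.00612% at the adjusted threshold in either direction, made up of 0.00612% higher and 0.0% lower in High lines. At an unadjusted p of 0.05 it called 7.95% of genes, 3.16% higher and 4.79% lower. The members' count of 0 stands beside these shares. For every member the values of the 5 High and 5 Low lines overlapped, whereas 1.57% of all tested genes had no overlap. In bulk RNA of a line, fewer cells of a type and less RNA per cell cannot be told apart.

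The precision allows a bound on each member. In all 10 the 95% interval of the High minus Low difference lay within 1.5-fold either way, and the widest reached 1.46-fold, for Klf4. The bound is not firm, since the widest member interval exceeded 1.5-fold in 8 of 20 alternative fits: with array weights, with a block on the first digit of the clone names, and without Low 2, Low 3, Low 4, Low 5, High 3 or High 4, where it reached up to 1.57-fold. Intervals within 1.5-fold are common on the array, holding for 94.5% of all tested genes. Differences smaller than these intervals are not detectable with 5 lines a class. Klf15 lay close to the array median, and the part of weak signal in its interval was not tested.

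**Figure D1:**
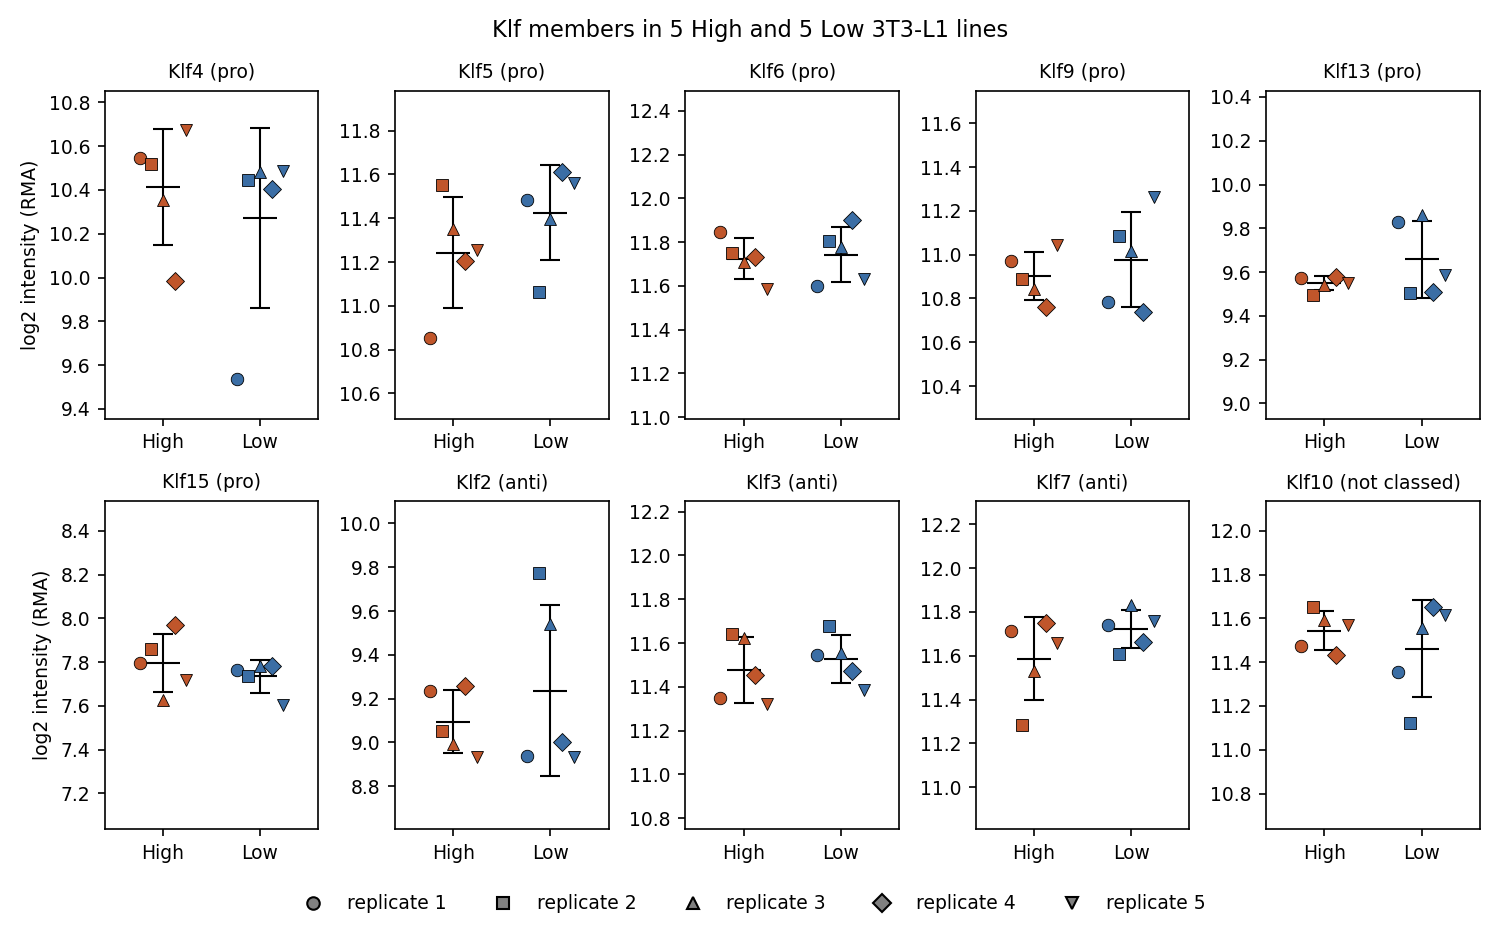
Log2 RMA intensity of each of the 10 Klf members in the 5 High lines (orange, left) and 5 Low lines (blue, right), with 1 symbol shape per line number, the mean as a long bar and 1 SD as error bars. Every panel spans the same number of log2 units on its vertical axis, and the classes overlap in all 10 panels.

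Promoters are shown for the members on which the description turns, Klf4 and Klf2 because they varied most between lines among all 10, and Klf13 and Klf7 because the 10 lines ranked alike for both. The sequences are from RefSeq, build GRCm38.p6, and run 5′ to 3′ on the gene's own strand from 250 bases before to 50 bases after the annotated start. Capitals mark CACCC, read as GGGTG on the other strand, and GGGCGG, read as CCGCCC on the other strand, and where matches touch or overlap the capitals run on.
Klf4, chr4:55532426-55532725, minus strand: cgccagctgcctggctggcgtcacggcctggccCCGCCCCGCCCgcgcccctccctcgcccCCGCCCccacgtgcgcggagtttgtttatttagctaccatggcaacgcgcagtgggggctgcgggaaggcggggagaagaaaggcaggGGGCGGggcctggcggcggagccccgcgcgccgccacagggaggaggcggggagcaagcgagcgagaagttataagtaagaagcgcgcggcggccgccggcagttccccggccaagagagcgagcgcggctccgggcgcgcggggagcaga
Klf2, chr8:72318812-72319111, plus strand: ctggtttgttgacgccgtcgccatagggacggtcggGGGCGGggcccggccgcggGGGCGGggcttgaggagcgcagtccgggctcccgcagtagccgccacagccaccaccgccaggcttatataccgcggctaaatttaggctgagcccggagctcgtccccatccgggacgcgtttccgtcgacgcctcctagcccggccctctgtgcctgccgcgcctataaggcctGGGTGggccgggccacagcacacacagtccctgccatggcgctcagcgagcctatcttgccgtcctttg
Klf13, chr7:63938866-63939165, minus strand: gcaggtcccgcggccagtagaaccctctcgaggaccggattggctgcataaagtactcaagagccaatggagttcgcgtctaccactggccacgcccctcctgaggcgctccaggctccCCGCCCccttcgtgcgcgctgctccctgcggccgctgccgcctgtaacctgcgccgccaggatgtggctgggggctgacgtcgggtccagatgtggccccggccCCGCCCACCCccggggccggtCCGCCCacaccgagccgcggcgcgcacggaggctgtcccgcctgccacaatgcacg
Klf7, chr1:64121340-64121639, minus strand: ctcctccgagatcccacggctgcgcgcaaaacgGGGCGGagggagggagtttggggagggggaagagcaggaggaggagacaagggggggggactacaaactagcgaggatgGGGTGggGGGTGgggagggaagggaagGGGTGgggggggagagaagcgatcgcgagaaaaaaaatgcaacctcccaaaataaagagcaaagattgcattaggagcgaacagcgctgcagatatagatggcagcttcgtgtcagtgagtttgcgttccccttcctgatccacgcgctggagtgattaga

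The promoter table held 8 of the 10 members. CACCC was found in 6 of these 8, against 57.5% of the 32851 promoters in the table, and GGGCGG in 7 of 8, against 35.7%. Both motifs together occurred in 23.8% of all promoters, and in those of Klf2, Klf3, Klf7, Klf13 and Klf15. The windows of these 8 members were 58.3% to 76.7% G and C, and the part of that in the matches was not tested. The Klf4 promoter held 4 matches to GGGCGG and 0 to CACCC, while the Klf7 promoter held 3 to CACCC and 1 to GGGCGG. In Klf13 there were 1 and 3, with 1 base shared by both motifs, and in Klf2 there were 1 and 2. The richest window was that of Klf3, with 5 matches to CACCC and 6 to GGGCGG. These matches describe letters in a window and do not show that a factor binds there.

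Klf4 (probe set 10513008, Entrez 16600, chromosome 4) was measured at 10.55, 10.52, 10.35, 9.98 and 10.67 in High lines 1 to 5, against 9.54, 10.44, 10.48, 10.41 and 10.49 in Low lines 1 to 5. Clone 1E7 (Low 1) stood far below every other line, and High 4 was the next lowest. High lines averaged 10.41 ± 0.27 and Low lines 10.27 ± 0.41 (SD, n = 5 each). The difference of 0.14 (SE 0.19) is a fold of 1.10 with a 95% interval of 0.835 to 1.46, and limma gave an unadjusted p of 0.454 and an adjusted p of 0.850. Without Low 1 the difference was -0.04, so its direction rests on that clone. Klf4 had the widest range of the 10 members over lines, 1.14 log2 units or 2.20-fold, and its spread within classes was at the 96.0th percentile of all tested genes.

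Klf5, the activator of Pparg2, ran the other way. Its probe set (10416777, Entrez 12224, chromosome 14) gave 10.85, 11.55, 11.35, 11.20 and 11.25 in High lines and 11.49, 11.07, 11.40, 11.61 and 11.56 in Low lines. High 1 was the lowest and Low 4 the highest, and Low 2 was lower than 4 of the 5 High lines. The 5 High lines averaged 11.24 ± 0.25 and the 5 Low lines 11.42 ± 0.22 (SD). This is a difference of -0.18 (SE 0.13), a fold of 0.882 with a 95% interval of 0.723 to 1.07, with an adjusted p of 0.776 in limma. It was -0.08 without High 1 and -0.27 without Low 2, where limma gave an unadjusted p of 0.0442 and an adjusted p of 0.588.

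Klf6, which represses Dlk1, varied little within classes, its spread being at the 29.5th percentile of all tested genes. High lines gave 11.84, 11.75, 11.71, 11.73 and 11.59 and Low lines 11.60, 11.81, 11.78, 11.90 and 11.63 (probe set 10403352, Entrez 23849, chromosome 13). The classes were interleaved, with means of 11.72 ± 0.09 in High lines and 11.74 ± 0.12 in Low lines. The difference was -0.02 (SE 0.07), with a 95% interval from -0.18 to 0.14 on the log2 scale and an adjusted p of 0.949 in limma. Its target Dlk1 averaged 13.81 ± 0.04 in High lines and 13.85 ± 0.06 in Low lines, a difference of -0.04 with an adjusted p of 0.861. Dlk1 was bright in every line, at 13.76 to 13.94, with a spread at the 1.69th percentile of all tested genes. Whether its probe set was too bright to show a difference was not tested.

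Klf9, Klf13 and Klf15, which promote Pparg expression, gave small differences. Klf9 (probe set 10462091, Entrez 16601, chromosome 19) was at 10.97, 10.89, 10.84, 10.76 and 11.04 in High lines, against 10.78, 11.08, 11.02, 10.74 and 11.26 in Low lines. Low lines held both the highest and the lowest value, and High lines lay between them. The difference was -0.07 (SE 0.10), a fold of 0.950 with an interval of 0.815 to 1.11 and an adjusted p of 0.855 in limma, and without Low 5 it was -0.0030.

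For Klf13 (probe set 10564290, Entrez 50794, chromosome 7) the 5 High lines were nearly identical, at 9.57, 9.50, 9.54, 9.58 and 9.55. Low lines gave 9.83, 9.50, 9.86, 9.51 and 9.59, so that Low 1 and Low 3 stood well above all High lines, Low 5 just above them, and Low 2 and Low 4 among them. The SD was 0.03 in High lines and 0.17 in Low lines, about means of 9.55 and 9.66. The difference of -0.11 (SE 0.08) is a fold of 0.927 with an interval of 0.821 to 1.05, and limma gave an adjusted p of 0.782.

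Klf15 (probe set 10540028, Entrez 66277, chromosome 6), which also acts on Slc2a4, was at 7.79, 7.86, 7.63, 7.97 and 7.72 in High lines, against 7.77, 7.74, 7.78, 7.78 and 7.60 in Low lines. High 1, High 2 and High 4 lay above every Low line, and Low 5 was the lowest of all. The difference was 0.06 (SE 0.07), a fold of 1.04 with an interval of 0.933 to 1.16 and an adjusted p of 0.845 in limma. High 4 had the highest array median and Low 5 the lowest, 7.84 and 7.74, and Klf15 correlated with the array median over the 10 lines (r = 0.74, permutation p = 0.0179, adjusted p = 0.179 over 10 members). The rank correlation was 0.58 (permutation p = 0.0875, adjusted p = 0.707), and without High 4 and Low 5 r was 0.004, so the relation rests on those lines. The Klf15 difference was 0.02 without High 4, 0.03 without Low 5 and 0.03 with arrays centred on their medians. The part of the array level in the Klf15 values was not tested further.

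Of the anti-adipogenic members, Klf2 varied most. Its probe set (10572800, Entrez 16598, chromosome 8) gave 9.24, 9.05, 8.99, 9.26 and 8.94 in High lines, against 8.94, 9.77, 9.54, 9.0 and 8.94 in Low lines. Clones 2D7 (Low 2) and 2F1 (Low 3) were above all High lines, and the other 3 Low lines lay among or at the lower end of the High lines. The difference of -0.14 (SE 0.16) is a fold of 0.907 with an interval of 0.712 to 1.15, and limma gave an adjusted p of 0.834. Without Low 2 the difference was -0.0074, and without Low 3 it was -0.07. The range over lines was 1.79-fold, and the spread within classes was at the 93.8th percentile of all tested genes.

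Klf3, the partner of CtBP, gave 11.35, 11.64, 11.62, 11.45 and 11.32 in High lines and 11.54, 11.68, 11.55, 11.47 and 11.39 in Low lines (probe set 10522051, Entrez 16599, chromosome 5). The classes covered almost the same range. The difference was -0.05 (SE 0.08), with a 95% interval from -0.23 to 0.13 and an adjusted p of 0.880 in limma, and it was -0.01 without Low 2 or without High 5.

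Klf7 (probe set 10355141, Entrez 93691, chromosome 1) was at 11.71, 11.28, 11.53, 11.75 and 11.66 in High lines, against 11.74, 11.61, 11.83, 11.66 and 11.76 in Low lines. High 2 and High 3 were below every Low line, and the other 3 High lines were among them. Means were 11.59 ± 0.19 in High lines and 11.72 ± 0.09 in Low lines (SD, n = 5 each). The difference of -0.13 (SE 0.09), a fold of 0.912 with an interval of 0.797 to 1.04, had the smallest unadjusted p of the 10 members, 0.163, with an adjusted p of 0.763 in limma and an exact permutation p of 0.198. Without High 2 it was -0.06. With the median of the 50 nearest genes subtracted it was -0.17, where limma gave an unadjusted p of 0.0339 and an adjusted p of 0.605.

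Klf10, the early TGF-beta response gene, gave 11.47, 11.65, 11.59, 11.43 and 11.57 in High lines and 11.35, 11.12, 11.56, 11.65 and 11.62 in Low lines (probe set 10428302, Entrez 21847, chromosome 15). Low 2 and Low 1 were the 2 lowest lines, and the other 3 Low lines lay among the High lines. The difference was 0.08 (SE 0.10), a fold of 1.06 with an interval of 0.912 to 1.23 and an adjusted p of 0.841 in limma, and without Low 2 it was -0.0014.

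**Figure D2:**
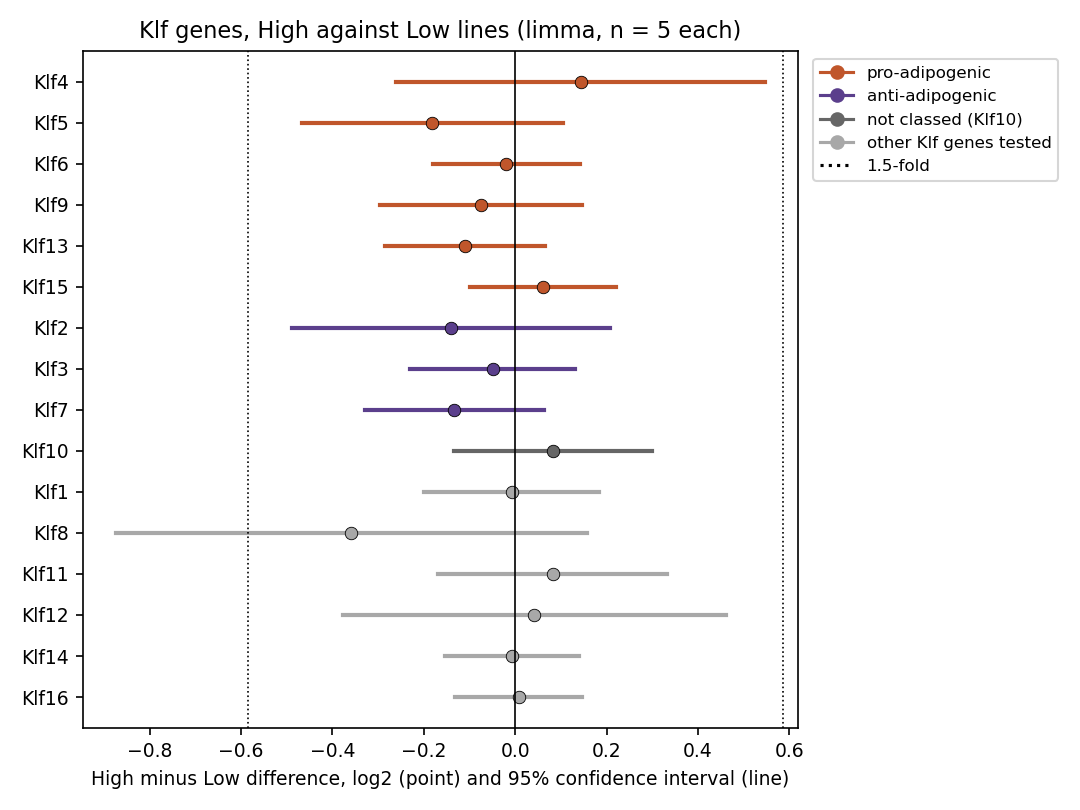
High minus Low difference of each Klf gene tested (point, log2 units) with its 95% confidence interval from limma (line), 5 High against 5 Low lines. The 10 members are coloured by class, other Klf genes are grey, the solid line marks no difference and the dotted lines mark 1.5-fold. All 10 member intervals cross 0 and stay between the dotted lines, while the interval of Klf8, which is no member, does not stay between them.

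The pro-adipogenic and anti-adipogenic members were then set side by side. Among the 6 pro-adipogenic members 2 had a positive High minus Low difference (Klf4 and Klf15) and 4 a negative one, with a median of -0.05, and 0 of 6 passed the adjusted test. All 3 anti-adipogenic members had a negative difference, with a median of -0.13, and 0 of 3 passed. That median was -0.01 without Low 2, -0.07 without Low 3 and 0.06 with a block on the first digit of the clone names, so its size rests on a few clones. Over all 16339 tested genes the median was 0.02 and 42.0% had a negative difference. These are counts of signs within the replicate spread and not calls of change, and the share of negative genes depends on the scale, being 54.3% with arrays centred on their medians.

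Per line, the mean deviation of a class from its gene means over 10 lines gave the same picture. The pro-adipogenic members deviated by -0.02, 0.06, -0.05, -0.08 and 0.02 log2 units in High lines 1 to 5, against -0.12, -0.01, 0.10, 0.04 and 0.07 in Low lines 1 to 5. Low lines held both the lowest and the highest value. The anti-adipogenic members deviated by -0.01, -0.11, -0.06, 0.05 and -0.14 in High lines, against -0.03, 0.25, 0.20, -0.06 and -0.08 in Low lines. Low 2 and Low 3, the same clones that were high in Klf2, stood above all other lines, and the remaining 3 Low lines overlapped the High lines.

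The pro-adipogenic mean less the anti-adipogenic mean was -0.01, 0.17, 0.01, -0.13 and 0.15 in High lines, against -0.09, -0.26, -0.10, 0.10 and 0.15 in Low lines. It averaged 0.04 ± 0.12 in High lines and -0.04 ± 0.17 in Low lines (SD, n = 5 each), a difference of 0.08 that is smaller than either SD. High 4 was lower than 4 of the 5 Low lines, and Low 4 and Low 5 were higher than High 1, High 3 and High 4. No p is given for these means, because the members were chosen with earlier results of these data known.

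**Figure D3:**
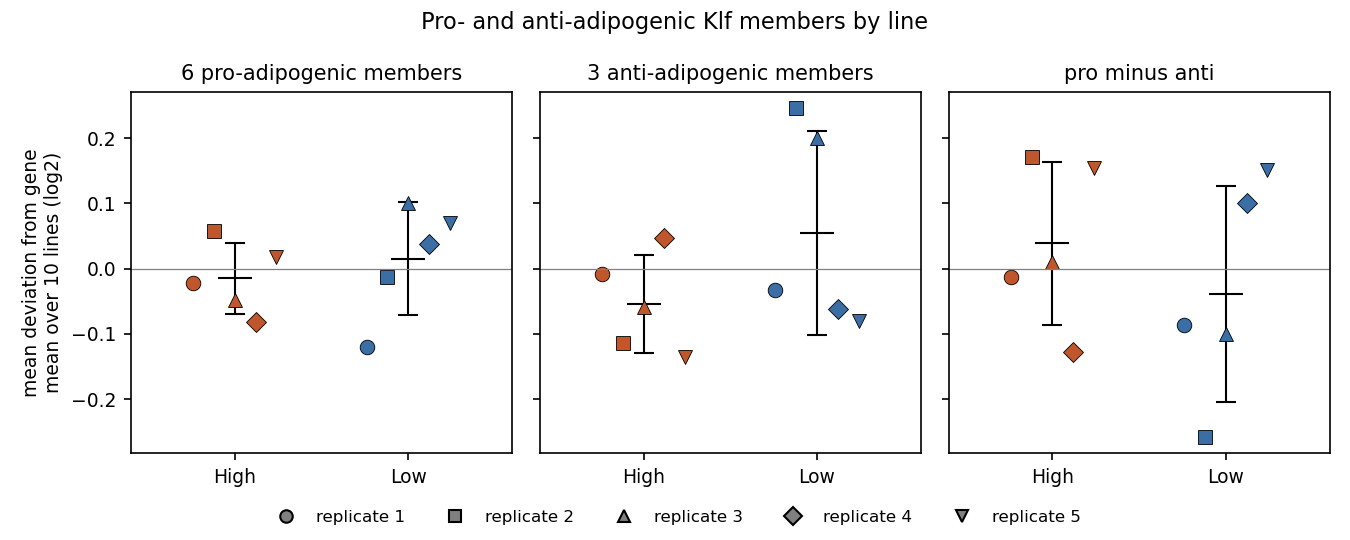
Mean deviation from the gene means over 10 lines (log2 units) of the 6 pro-adipogenic members, the 3 anti-adipogenic members, and the first less the second, in the 5 High lines (orange, left) and 5 Low lines (blue, right), with the mean as a long bar and 1 SD as error bars. The classes of lines overlap in all 3 panels, and Low 2 and Low 3 lie highest for the anti-adipogenic members.

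Whether members vary together from clone to clone was examined over all 45 pairs and 10 lines. Pearson's r was positive in 20 pairs and negative in 25, with a median of -0.06 and a range of -0.66 to 0.60. With 100000 permutations of the lines, 1 pair had an unadjusted p under 0.05 by Pearson's r and 3 by Spearman's rho. After Benjamini-Hochberg adjustment over the 45 pairs 0 passed by Pearson's r (smallest adjusted p = 0.725) and 1 by Spearman's rho. Of the 15 pairs within the pro-adipogenic members 5 were positive, of the 3 pairs within the anti-adipogenic members 2, and of the 18 pairs between the classes 11.

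The pair that passed was Klf13 with Klf7, a pro-adipogenic with an anti-adipogenic member. The lines ranked nearly alike for both, with rho = 0.90 (permutation p = 0.00078, adjusted p = 0.0351), while r was 0.60 (permutation p = 0.0687, adjusted p = 0.725). High 2 was lowest in both genes and Low 3 highest in both. Adjusted over both coefficients together, the p of rho was 0.0702. Without Low 1 and Low 3, the lines farthest from the median of Klf13, r was 0.72 and rho 0.88. With values centred within High and Low, rho was 0.70 (adjusted p = 0.459), and with arrays centred on their medians it was 0.78 (adjusted p = 0.276). Leaving out 1 line at a time left rho between 0.87 and 0.93, but the adjusted p was above 0.05 without any 1 of High 1, High 2, High 4, High 5, Low 1, Low 2, Low 3 or Low 5, at 0.0617 to 0.198.

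The lowest r was that of Klf2 with Klf10, -0.66 (permutation p = 0.0392, adjusted p = 0.725), with rho = -0.42 (permutation p = 0.232, adjusted p = 0.931). Low 2 had the highest Klf2 and the lowest Klf10 of all lines. Without Low 2 and Low 3, the lines farthest from the median of Klf2, r was -0.33, and without Low 2 alone it was -0.16, so the relation rests on that clone. Klf5 and Klf10 gave r = 0.56 and rho = 0.70 (permutation p = 0.0313, adjusted p = 0.469 for rho). Klf6 and Klf2 gave r = 0.49 and rho = 0.71 (permutation p = 0.0266, adjusted p = 0.469 for rho), and neither pair passed the adjustment.

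**Figure D4:**
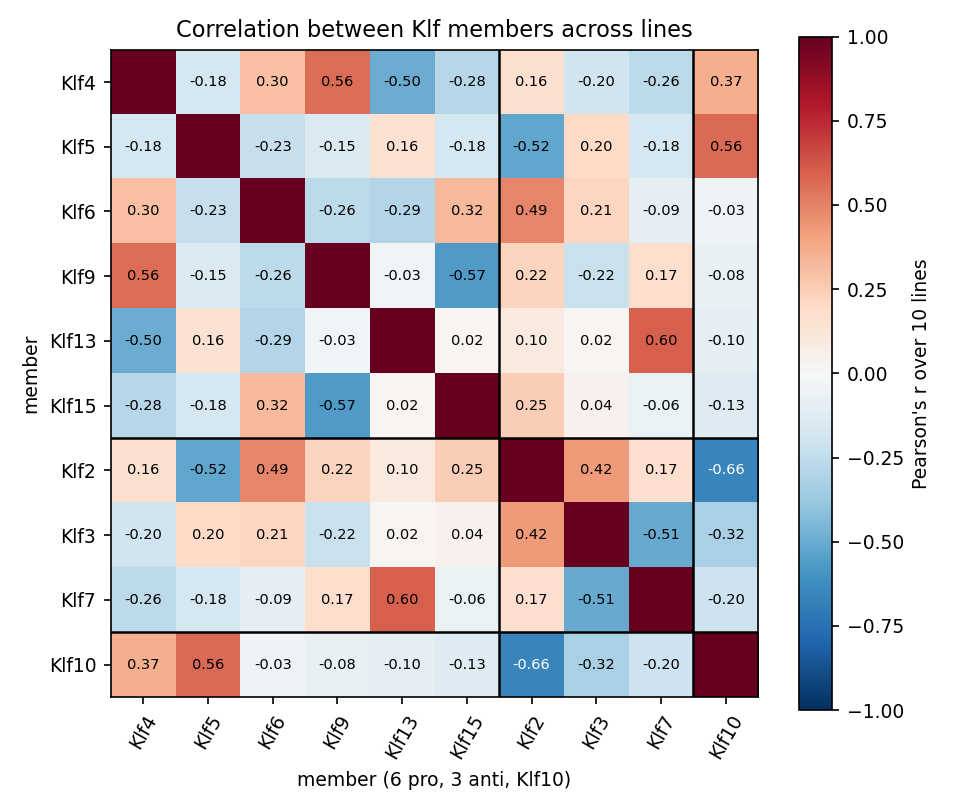
Pearson's r between each pair of Klf members over the 10 lines, printed in each cell and coloured from blue (negative) to red (positive), with black lines between the 6 pro-adipogenic members, the 3 anti-adipogenic members and Klf10. Both signs occur among the pro-adipogenic members, among the anti-adipogenic members and between them, and the extremes are Klf13 with Klf7 at 0.60 and Klf2 with Klf10 at -0.66.

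**Figure D5:**
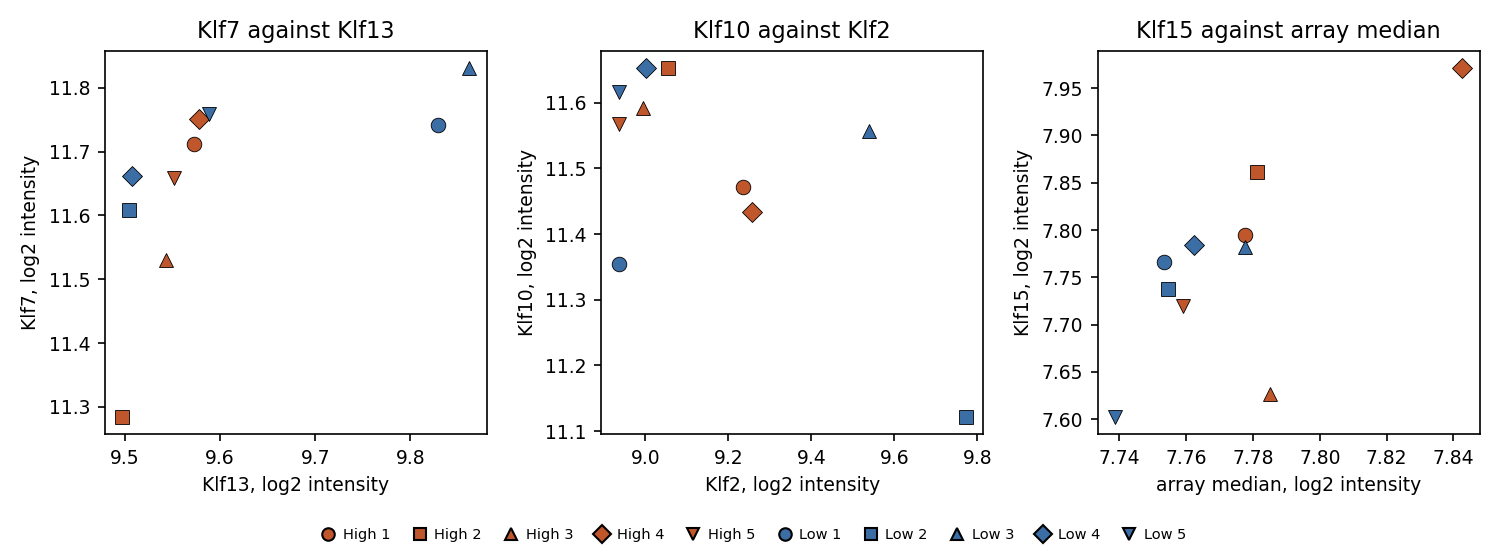
Log2 intensity of Klf7 against Klf13, of Klf10 against Klf2, and of Klf15 against the median of its array, 1 point per line, with High lines in orange and Low lines in blue. Low 1 and Low 3 lie to the right for Klf13, Low 2 alone sets the lower right of the Klf2 panel, and High 4 alone the upper right of the Klf15 panel.

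The genes whose values followed each member most closely were taken as the 3 with the highest Pearson's r over the 10 lines among tested genes. They are given without p, since the highest correlations among 16339 genes over 10 arrays are high by selection. Klf4 was most like Gstp1 (r = 0.92), Pbx4 (0.92) and Ier2 (0.91), and Klf5 most like Tead4 (0.95), Faap24 (0.95) and Rrp8 (0.94). Klf6 was followed by Maml2 (0.95), Clip1 (0.93) and Plcb4 (0.92), and Klf9 by Nqo1 (0.92), Gss (0.92) and Ndufv1 (0.87). For Klf13 the genes were Cnr1 (0.89), Scyl3 (0.87) and Lratd1 (0.86), so Klf7 was not among them. None of the genes listed for the pro-adipogenic members passed the adjusted test between High and Low lines. Only 1 of all 16339 tested genes did, so little can be read from this.

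Klf15 had the highest coefficients, with Trpm1 (0.99), Cd300e (0.98) and Mfsd2b (0.98), beside its own correlation with the array median given above. These genes were dim, at 6.53 to 6.93, 6.96 to 7.43 and 7.01 to 7.55, below the lowest array median of 7.74. The part of weak signal in these coefficients was not tested. Among anti-adipogenic members, Klf2 was closest to Chrd (0.93), Plpp5 (0.89) and Tmem192 (0.88), Klf3 to Arglu1 (0.90), Ptpn2 (0.89) and Fastk (0.88), and Klf7 to Mpp1 (0.95), Dapl1 (0.92) and Tcirg1 (0.91). Klf10 was closest to Kif20b (0.92), Lrrc14 (0.91) and Mettl15 (0.89). Ndufv1, Plpp5, Tmem192, Fastk and Lrrc14 lie on the same chromosome as the member they followed. The share of all tested genes on those chromosomes was not counted, so nothing is drawn from this.

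The rest of the family gave no calls either. Of 7 other Klf genes with a probe set 6 were tested, 3 with a positive and 3 with a negative difference, and limma called 0 at the adjusted and 0 at the unadjusted threshold. Klf8 had the largest difference of these, with 6.61 ± 0.24 in High lines and 6.97 ± 0.59 in Low lines (SD, n = 5 each) and an adjusted p of 0.759. Klf11, Klf12 and Klf16 differed by 0.08, 0.04 and 0.01, and Klf17 was below the intensity filter. The Sp factors, which share the zinc finger domain and bind GC boxes, had 7 tested genes of 9 listed, 4 positive and 3 negative, with a median of 0.01 and 0 called at either threshold. Sp4 differed by -0.31 (unadjusted p = 0.0513, adjusted p = 0.629 in limma), Sp7 by 0.09, Sp3 by -0.06 and Sp5 by 0.06.

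Partners of the members gave no adjusted call. Of 14 listed cofactors and turnover factors, such as CtBP and Sin3 corepressors, histone acetyltransferases and the ubiquitin ligase genes Wwp1 and Fbxw7, 13 were tested, 3 with a positive and 10 with a negative difference. The median was -0.05, and limma called 0 at the adjusted threshold and 2 of 13 at an unadjusted p of 0.05, both lower in High lines, where 4.79% of all tested genes were. Fhl3, a LIM protein that binds Klf3, averaged 12.44 ± 0.05 in High lines and 12.64 ± 0.15 in Low lines (adjusted p = 0.511). Sap30, of the Sin3 complex, averaged 9.36 ± 0.34 in High lines and 9.73 ± 0.15 in Low lines (difference -0.37, 95% interval -0.68 to -0.05, adjusted p = 0.541). Hdac3 differed by 0.12 and Ep300 by -0.17, with adjusted p of 0.662 and 0.760.

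Among 10 genes known to act upstream or downstream of the members, Pparg, Fabp4, Rxra and Cebpa differed by more in size than any member. Cebpa did so only narrowly, at 0.19 against -0.18 for Klf5. Of the 10, 8 had a positive and 2 a negative difference, with a median of 0.15. limma called 0 at the adjusted threshold and 3 of 10 at an unadjusted p of 0.05, all higher in High lines. Over all tested genes 3.16% were called higher at that unadjusted threshold. Pparg, on which Klf2, Klf5, Klf9, Klf13 and Klf15 act, averaged 12.02 ± 0.19 in High lines and 11.41 ± 0.21 in Low lines, with no overlap between classes. Its difference of 0.62 had an unadjusted p of 0.00015 and an adjusted p of 0.255 in limma. Fabp4, the fatty acid carrier induced by Pparg, averaged 9.82 ± 0.69 in High lines and 8.60 ± 0.45 in Low lines (adjusted p = 0.298), and Rxra, the partner of Pparg, differed by 0.29 (adjusted p = 0.308). Without High 5, 2 of the 10 passed the adjusted test, Pparg with an adjusted p of 0.0489 and Fabp4 with 0.0213. In that fit 19 of all 16339 tested genes passed, against 1 with all 10 lines. High 5 was the lowest High line for both genes, at 11.75 and 8.63, so leaving it out could only raise their differences.

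The other genes of this list that are partners, inducers or targets of a member did not pass in either fit. Egr2, the partner of Klf4, differed by -0.16 (adjusted p = 0.852 in limma), and their target Cebpb by 0.11 (0.715). Cebpd, an inducer of Klf5, differed by 0.15 (0.844), Cebpa, the target of Klf3, by 0.19 (0.759) and Slc2a4, the target of Klf15, by 0.14 (0.733).

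Klf2, Klf4, Klf6 and Klf10 can be induced by serum, so 23 immediate early serum response genes were set beside them. Of these 6 had a positive and 17 a negative difference, with a median of -0.15. Of all tested genes 42.0% had a negative difference, or 54.3% with arrays centred on their medians. limma called 0 at the adjusted threshold and 4 of 23 at an unadjusted p of 0.05, all lower in High lines. Over all tested genes 4.79% were called lower at that unadjusted threshold. Ccn2, a matricellular growth factor, averaged 11.45 ± 0.16 in High lines and 12.10 ± 0.51 in Low lines (adjusted p = 0.417), and Srf, Dusp6 and Dusp1 differed by -0.28, -0.40 and -0.27, with adjusted p of 0.534, 0.542 and 0.574. The members themselves had 0 of 10 at the unadjusted threshold, which 7.95% of all tested genes passed in either direction.

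Klf9 and Klf15 respond to glucocorticoids, and 12 glucocorticoid response genes served as a comparison. Of these 8 were positive and 4 negative, with a median of 0.05, and 1 passed the adjusted test. This was Angptl4, a secreted inhibitor of lipoprotein lipase, which rose to 10.36 ± 0.10 in High lines, against 9.48 ± 0.13 in Low lines (difference 0.88, adjusted p = 0.00118 in limma), and it was the 1 gene called on the whole array. With a block on the first digit of the clone names its difference was 0.72, with an unadjusted p of 0.000463 and an adjusted p of 0.785, so the call is lost there. At an unadjusted p of 0.05 limma called 1 of the 12 higher in High lines, Angptl4, and 2 lower. Over all tested genes 3.16% were called higher and 4.79% lower. The 2 lower ones were Errfi1, which differed by -0.42 (adjusted p = 0.481), and Dusp1, by -0.27 (adjusted p = 0.574). Nr3c1, the glucocorticoid receptor gene, differed by 0.11 (adjusted p = 0.708).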

How the data were processed

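The deposited table holds log2 intensities, 1 per array and probe set, made by RMA per the submitters' processing notes. The sources used here do not state RMA settings, array annotation, genome build or array batches. Of 34760 probe sets, the platform annotation listed 22961, of which 21640 had 1 gene symbol, 1321 had several and were not used, and 11799 were unnamed here. They stood for 19937 genes. A gene entered the tests when 5 or more arrays had it above their 25th percentile (16339 genes), and 3598 were set aside.

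The contrast of High with Low lines was fitted by limma 3.58.1 (lmFit, eBayes) in R 4.3.3, two-sided, with Benjamini-Hochberg adjustment over all tested genes and a threshold of 0.05. Exact permutation tests and correlations used numpy 2.4.6, with ranks from scipy 1.17.1, and figures used matplotlib 3.10.9. The fit was also run on simulated data, and its recovery of small changes there is not given here. The named genes are all members, up to 4 genes of each other list with the smallest unadjusted p, a panel of 7 tied genes and the 3 genes most like each member. The members and lists were chosen with earlier results of these data known. Alternatives covered the filter, normalization, variance model, array weights, a block on the first digit of the clone names, neighbouring genes and each line left out, and 1 (the array median) was added after the values were seen. With 1 array per line, the number of lines limits the precision.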

Additional observations from a re-analysis of the deposited data

Results flagged for a closer look

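In each class, the 5 values of the 38 members and related Klf, Sp and cofactor genes were searched for a line far from the other 4. Of 76 such sets 5 held one, against 3.8 expected by chance, which is about 1 in 20. Klf4 was at 9.54 in Low 1, against 10.41 to 10.49 in the other Low lines. Klf15 was at 7.60 in Low 5, against 7.74 to 7.78. Klf11 was at 8.75 in High 5, against 9.19 to 9.29 in the other High lines. Sp3 was at 11.45 in High 4, against 11.81 to 11.85. Sp7 was at 6.90 in Low 3, against 6.80 to 6.83.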

How the results depend on the processing

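No paired analysis was possible because the labels give no replicate numbers, so the numbers of the lines only name them. No member passed the adjusted threshold in the 200 alternative fits, 20 for each. Of the settings 15 could change a member's value, and the sign turned in 10 of the 150 values these gave. The smallest adjusted p of a member was 0.588, for Klf5 without Low 2. Klf5, Klf7, Klf9 and Klf13 kept their sign in these 15, though Klf9 came to -0.0030 without Low 5. With a block on the first digit of the clone names, which rests on clones 4D2 and 4E3 against 4D11 and 4H4, the difference was -0.011 for Klf4, 0.056 for Klf2, 0.20 for Klf3 and -0.012 for Klf10. Klf7 was then at -0.30, the anti-adipogenic median was 0.056 against -0.13, and 0 glucocorticoid genes passed against 1, Angptl4 being at an adjusted p of 0.785. With the median of the 50 nearest genes subtracted it was 0.052 for Klf6 and -0.018 for Klf15. Leaving out 1 line at a time gave -0.040 to 0.25 for Klf4 (-0.040 without Low 1), -0.055 to 0.020 for Klf6, -0.0014 to 0.13 for Klf10 (-0.0014 without Low 2), -0.22 to -0.0074 for Klf2 (-0.0074 without Low 2) and -0.17 to -0.01 for the anti-adipogenic median (-0.01 without Low 2), and left 0 to 2 genes tied to members past the threshold, with 2 without High 5 alone. The widest interval of any member exceeded 1.5-fold in 8 of 20 fits and reached 1.57-fold, without High 4.

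The Spearman count of pairs was 1, and 0 with values centred within classes, with arrays centred, and without High 1, High 2, High 4, High 5, Low 1, Low 2, Low 3 or Low 5 (range 0 to 1). Over all genes 1 passed, against 19 without High 5, 3 with array weights, 2 with arrays centred, an intensity trend, or without Low 3 or Low 5, and 0 with the block. Centring arrays moved the median of all genes to -0.01, against 0.02, and the share of negative differences to 54.3%, against 42.0%, with 51.7% under the stricter filter. No second probe set of a member could be tried, since each had 1. The cause of these shifts was not tested. Dim genes such as Klf8 and Klf17 have the least signal over background. Klf15, the member with the lowest values, lay close to the array median.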
